A study of Mus musculus with 155 samples.

Results

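Mouse embryonic stem cells (ESCs) that expressed the mutant histone H3.3K27M were compared with ESCs that expressed wild-type H3.3 and were treated with GSK343, a small-molecule inhibitor of PRC2, to ask how the dominant mutant histone differs from chemical inhibition of the same enzyme. The members were chosen by genotype and treatment alone. They are the 8 H3.3K27M and the 8 GSK343 RNA libraries of the ESC count table, 16 of the 42 RNA libraries and of the 155 samples of all assays. All cells were KH2 ESCs that carried a doxycycline-inducible, SNAP- and HA-tagged H3.3 transgene and were kept in 1 uM doxycycline (Dox) for 4, 8, 24 or 72 h, with 2 libraries at each time. The first group carried the K27M transgene. The second carried the wild-type transgene (WT-H3.3) and received GSK343 together with Dox for the same hours. The untreated parent of the drug-treated cells, WT-H3.3 in Dox without GSK343, gave another 8 libraries, which shared the model. The K27M and WT transgenes sit in different lines, so that the mutant histone, the line and the absence of the drug cannot be told apart in the direct comparison. Replicates were experiments repeated weeks apart in the same lines, so p-values measure the spread between these samples. Libraries of the same replicate number at different hours may come from the same experiment, which the labels do not state. The model took all libraries as independent. If they share experiments, tests over the 4 times and counts of 8 against 8 libraries rest on fewer independent units than 8 per group. Total counts were 6590661 to 11949871 in H3.3K27M, 5295859 to 8724336 in 7 of the GSK343 libraries and 1247934 in GSK343 8 h replicate 2, and 8245552 to 16083610 in WT-H3.3.

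PRC2 is the enzyme complex that methylates lysine 27 of histone H3, with Ezh2 or Ezh1 as its catalytic subunit and Eed and Suz12 as core partners, and its mark H3K27me3 keeps Hox genes and other developmental regulators low in ESCs. In H3.3K27M a methionine replaces that lysine, and the mutant tail acts in a dominant way on PRC2 as a whole. GSK343 competes for the methyl-donor pocket of EZH2.

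Few genes were called between the groups. Hox genes were mostly higher in GSK343-treated cells (19 of 21), with Hoxa7, Hoxd13 and Hoxd9 past the test. Targets of the hypoxia-inducible factors (HIF) were mostly higher in H3.3K27M cells (40 of 44), with Vegfa and Ddit4 past the test. The study had already named both as raised by H3.3K27M in these cells. Ptgs2, which encodes the inducible prostaglandin synthase, was higher in all 8 GSK343 libraries than in any H3.3K27M library. Over the mean of the 4 times, 23 of 13883 genes tested, or 0.166%, passed an adjusted p under 0.05 and a 2-fold difference in edgeR's quasi-likelihood test. Of these, 6 were higher in H3.3K27M (0.0432% of the genes tested) and 17 were higher with GSK343 (0.122%). Without the fold limit, 77 genes passed (0.555%), 39 of them higher in H3.3K27M (0.281%) and 38 higher with GSK343 (0.274%). An unadjusted p under 0.05 was reached by 3389 genes, 24.4% of those tested. All genes together were centred, with 7039 above 0 (50.7%), 6844 below 0 (49.3%) and a median log2 fold change of 0.0056.

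That count of called genes was not stable, and 21 of the 23 adjusted p-values lay between 0.04607 and 0.048. Leaving out 1 library at a time gave 0 to 341 calls. Without H3.3K27M 8 h replicate 1 there were 341 calls, and there were 222 without H3.3K27M 4 h replicate 1 and 222 without H3.3K27M 24 h replicate 1. Without WT-H3.3 8 h replicate 1 there were 46 and without WT-H3.3 8 h replicate 2 there were 47. There were 7 without H3.3K27M 72 h replicate 1, 0 without GSK343 8 h replicate 1, and between 1 and 3 without any 1 of the other 17 libraries. The values in each library are therefore given beside the tests. The levels of the 8 and 8 libraries did not overlap at all for 22 genes that were higher in H3.3K27M (0.158%) and for 8 that were higher with GSK343 (0.0576%), and of the called genes this held for Ptgs2 and Hoxa7.

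**Figure D1:**
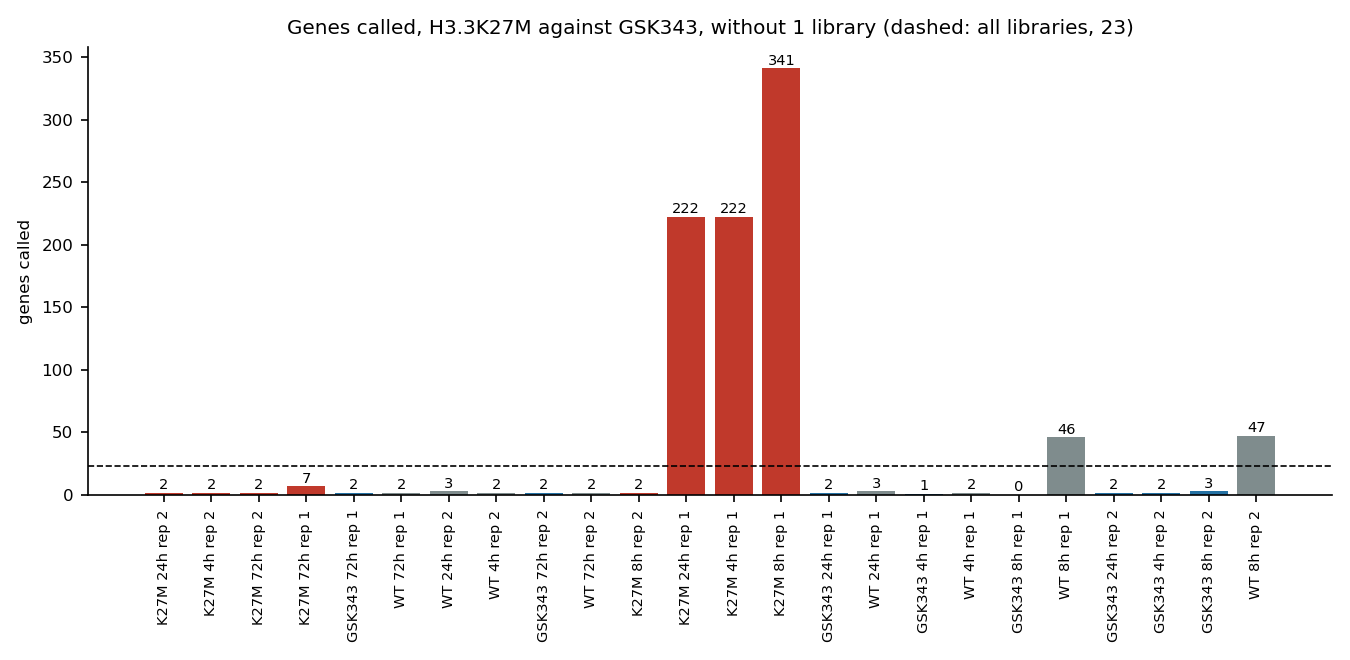
Number of genes called between H3.3K27M and GSK343 (vertical axis) when the library named on the horizontal axis was left out, with bars coloured red for H3.3K27M, blue for GSK343 and grey for WT-H3.3 libraries. The dashed line marks the 23 calls with every library, and 3 H3.3K27M libraries of replicate 1 stand apart at 222, 222 and 341.

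Libraries also differed in how their levels related to gene length, and this did not fall evenly on the groups. For each library, the median log2 level relative to the mean of the 24 libraries was taken in the longest and in the shortest of 4 equal groups of genes by exon length, and the difference, longest minus shortest, was called its length trend. It was above 0 in 5 H3.3K27M libraries (0.31 to 0.41), in 2 GSK343 libraries (0.39 and 0.46) and in 4 WT-H3.3 libraries. It was below 0 in 3 H3.3K27M libraries, replicate 1 at 4, 8 and 24 h (-0.33 to -0.063), in 6 GSK343 libraries, those of 4, 8 and 24 h (-0.63 to -0.11), and in 4 WT-H3.3 libraries. The labels name 2 library kits, one of which reads 3′ ends, without saying which library was made with which. Only at 72 h did all 4 libraries of the comparison lie on the same side. Over the 16 libraries the median log2 fold change ran from -0.14 in the group of shortest genes to 0.18 in the group of longest genes. The main results are therefore also given with the side of the length trend as a term in the model, and within each side: at 4, 8 and 24 h among the 3 H3.3K27M and 6 GSK343 libraries below 0, and at 72 h among the 2 and 2 above 0. These fits were added after seeing the data. The set below 0 held 1 H3.3K27M library at each hour, always replicate 1. The SEs given for this set therefore rest on the spread of GSK343 and WT-H3.3 libraries and hold none between H3.3K27M replicates.

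With that term, 18 genes were called, 3 higher in H3.3K27M and 15 higher with GSK343, and 13 of the 18 were among the 23 above. All 13 were higher with GSK343, among them Ptgs2, P2rx7, Hoxa7, Hoxd13, Hoxd9, Efna5, Tchh, Cdk5r2, Anxa3, Lipg, Slc25a48 and Gpnmb. None of the 6 genes higher in H3.3K27M stayed past both limits. All 23 kept their direction with the term, within the libraries below 0, and at 72 h. These fits reuse the libraries by which the 23 were chosen, so the shared direction is no separate evidence. Within the smaller sets few genes could be called: 2 genes, neither of them among the 23, passed among the libraries below 0 (900 at an unadjusted p under 0.05), and 0 passed at 72 h in edgeR's test (1516 at an unadjusted p under 0.05).

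**Figure D2:**
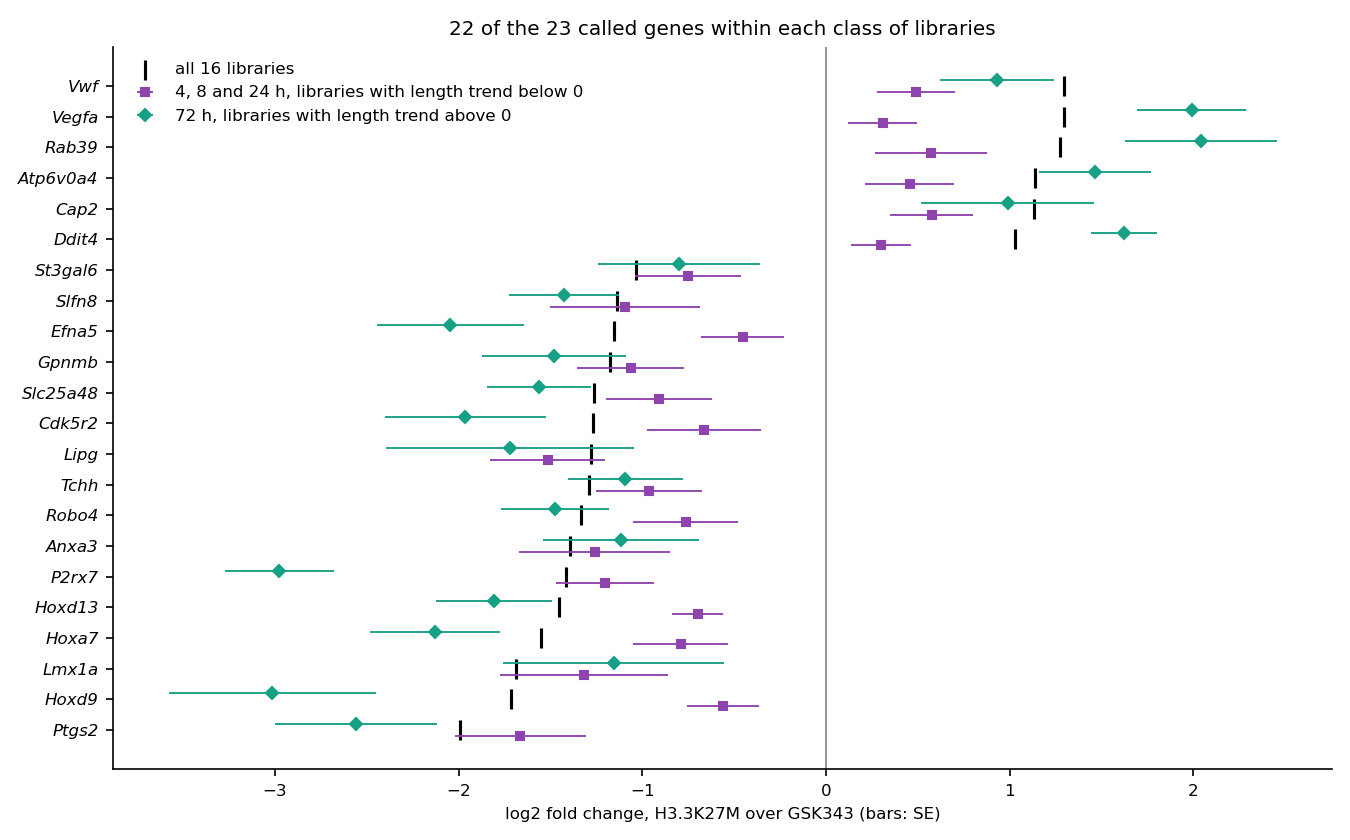
Log2 fold change of H3.3K27M over GSK343 (horizontal axis) of 22 of the 23 called genes (vertical axis), over all 16 libraries (black ticks), within the 4, 8 and 24 h libraries with a length trend below 0 (squares) and at 72 h, where all libraries had a trend above 0 (diamonds), with bars of 1 SE. Each gene keeps its side of 0 in both sets, and the difference is 1.99 for Vegfa at 72 h against 0.31 in the other set. Both sets are drawn from the libraries by which the genes were chosen. The bars of the squares hold no spread between H3.3K27M replicates.

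The histone and PRC2 genes were examined first. The transgene is an H3.3 coding sequence, and it was not stated whether its reads enter the 2 H3.3 genes, so their counts do not check the labels. H3f3a (ENSMUSG00000060743.12) lay between 70.8 and 144.1 CPM (the gene's share of its library's counts, scaled by TMM, on which all levels here are given) in H3.3K27M libraries, with a median of 103.0, and between 71.1 and 146.0 in GSK343 libraries, with a median of 114.4. H3f3b lay between 457.2 and 810.6 CPM and between 561.0 and 784.6 CPM. The log2 fold changes were -0.019 for H3f3a and -0.18 for H3f3b, and neither passed the test. Ezh2 had medians of 281.6 CPM in H3.3K27M and 281.8 CPM with GSK343 (log2 fold change -0.059, SE 0.087, adjusted p = 0.69). Its partners Eed and Suz12 had log2 fold changes of -0.080 and 0.27, the accessory subunit Jarid2 had 0.24 and Lcor, with the lowest p of the list, 0.59 (adjusted p = 0.088). None of the 14 PRC2 subunit genes tested passed, and their median log2 fold change was 0.091. Some forms of PRC1 act at sites that carry the PRC2 mark. Of the 19 PRC1 subunit genes, Bmi1 passed the adjusted p alone. It had 14.2 to 26.1 CPM in H3.3K27M and 18.5 to 37.1 CPM with GSK343 (log2 fold change -0.69, SE 0.14, adjusted p = 0.046). Untreated cells held 24.6 to 30.1 CPM, within the range of the drug-treated ones and overlapping that of H3.3K27M. Without GSK343 8 h replicate 2, the shallowest library, the range with GSK343 was 26.9 to 37.1 CPM and did not overlap that of H3.3K27M. Untreated cells then reached below the drug-treated ones and overlapped both groups.

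The pluripotency factors Nanog, Pou5f1 and Sox2 did not pass the test. Nanog had medians of 1275 CPM in H3.3K27M and 1317 CPM with GSK343, and Pou5f1, which encodes OCT4, had 543.7 and 651.3 CPM. Sox2 had medians of 390.0 and 385.4 CPM. The 20 naive pluripotency genes matched, 2 of them on chromosome 8, had a summed level of 6924 to 8384 CPM in H3.3K27M. It was 6479 to 7254 CPM with GSK343, so that the ESC label held in every library. Sums of lists took every matched member, tested or not. Of the other cell types the cultures could hold, fibroblast markers summed to 1255 to 2468 CPM and 1126 to 2139 CPM, extraembryonic endoderm genes to 1735 to 2397 CPM and 1754 to 2074 CPM, trophoblast genes to 173.2 to 223.4 CPM and 182.2 to 218.1 CPM, and neural genes to 413.2 to 990.5 CPM and 714.2 to 813.4 CPM. No member of these 4 lists was called over all 24 libraries. In the neural list, 2 genes that missed the adjusted p had opposite signs. Nefm, a neurofilament subunit, had 4.51 to 33.9 CPM in H3.3K27M and 32.75 to 83.4 CPM with GSK343, with 7 of 8 H3.3K27M libraries below all GSK343 libraries (log2 fold change -1.39, SE 0.31, adjusted p = 0.052). It was called with the length term (-1.12, adjusted p = 0.019) and in 11 of 35 alternative settings. Grin1, a glutamate receptor subunit, had 2.19 to 7.49 CPM in H3.3K27M and 0 to 3.22 CPM with GSK343 (1.08, SE 0.25, adjusted p = 0.053), and was called in 9 of 35. Of 14 genes of primed pluripotency, the state of the epiblast after implantation, 11 were higher with GSK343 (median log2 fold change -0.48). Of 13 genes of two-cell-like cells all 13 were higher with GSK343 (median -0.49). In the two-cell-like list both groups lay below untreated cells, with medians of -0.5498 for GSK343 over WT-H3.3 and -1.001 for H3.3K27M over WT-H3.3. For the primed list the same medians were 0.104 and -0.41. In these lists 0 members were called by edgeR. An unadjusted p under 0.05 was reached in the primed list by 7 members higher with GSK343 and 2 higher in H3.3K27M, and in the two-cell-like list by 2 higher with GSK343, beside 9.39% and 15% of all genes in these directions. In bulk RNA, fewer cells of a state and less RNA per cell cannot be told apart.

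Hox genes, the clustered homeobox genes that pattern the body axis and are classical targets of the PRC2 mark, had the largest median difference of the 34 lists over all times and libraries, though not at every time or within the libraries with a length trend below 0. Of 21 tested, 19 were higher with GSK343 and 2, Hoxc12 and Hoxb13, were higher in H3.3K27M, with a median log2 fold change of -0.82. Called were 3 of 21, all higher with GSK343, beside 0.122% of all genes, and 13 had an unadjusted p under 0.05 in that direction, beside 9.39% of all genes. The summed level of the 38 matched Hox genes was 42.1 to 75.5 CPM in H3.3K27M and 77.2 to 108.0 CPM with GSK343, without overlap. In WT-H3.3 it was 56.8 to 88.5 CPM. Over all libraries the untreated cells lay between. The median log2 fold change was 0.30 for GSK343 over WT-H3.3 and -0.46 for H3.3K27M over WT-H3.3. These comparisons share their control libraries, and no Hox gene was called in them. For the libraries with a length trend below 0, the list's median was also taken relative to the WT-H3.3 mean. It was -0.12 to 0.22 in H3.3K27M, -0.19 to 0.17 in WT-H3.3 and 0.14 to 0.63 with GSK343. There the ranges overlapped.

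Hoxa7 (ENSMUSG00000038236.8, NCBIM37 chr6:52164490-52171853, minus strand) was one of the 2 called genes whose groups did not overlap at all. Its H3.3K27M libraries held 3.53 and 1.81, 2.54 and 0.90, 3.09 and 0.76, and 1.72 and 1.35 CPM at 4, 8, 24 and 72 h. Its GSK343 libraries held 4.49 and 5.72, 4.20 and 7.56, 5.68 and 5.83, and 7.72 and 5.69 CPM. Every GSK343 library was above every H3.3K27M library. Untreated cells held 2.21 to 5.96 CPM and overlapped both groups. The difference was -1.55 on the log2 scale (SE 0.29, adjusted p = 0.046), -0.79 (SE 0.26) among the libraries with a length trend below 0 and -2.13 (SE 0.35) at 72 h.

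Hoxd13 (ENSMUSG00000001819.4, chr2:74506367-74509656, plus strand), the gene at the 5′ end of the HoxD cluster, had a lowest, median and highest level of 1.97, 4.11 and 13.3 CPM in H3.3K27M and 10.7, 16.3 and 19.5 CPM with GSK343. Only H3.3K27M 4 h replicate 1 reached the range of the drug-treated cells. The log2 difference came to -1.45 (SE 0.30, adjusted p = 0.048), -0.70 (SE 0.14) among the libraries with a length trend below 0 and -1.81 (SE 0.32) at 72 h. Hoxd9 (chr2:74535737-74538265, plus strand), of the same cluster, had 0.17, 1.55 and 5.94 CPM against 5.88, 7.62 and 10.6 CPM, a log2 difference of -1.71 (SE 0.38, adjusted p = 0.048), of -0.56 (SE 0.20) among the libraries below 0 and of -3.01 (SE 0.56) at 72 h. In both genes the H3.3K27M libraries of replicate 1 at 4, 8 and 24 h, whose length trend was below 0, lay above the other 5 of their group. Hoxd11, Hoxd10 and Hoxd8 of the cluster did not pass, with log2 fold changes of -1.58, -2.54 and -0.95. Over the list, 20 of 21 Hox genes were higher with GSK343 with the length term (median -0.73), 20 among the libraries below 0 (median -0.37) and 18 at 72 h (median -1.08).

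The 250 bases before the start of Hoxd13 are shown because PRC2 in ESCs sits at stretches rich in CG pairs, which are capitalised here. This window, GRCm38.p6 chr2:74667975-74668224 on the plus strand, from RefSeq, holds 31 CG pairs, and the median of 32851 such windows is 6.
Hoxd13: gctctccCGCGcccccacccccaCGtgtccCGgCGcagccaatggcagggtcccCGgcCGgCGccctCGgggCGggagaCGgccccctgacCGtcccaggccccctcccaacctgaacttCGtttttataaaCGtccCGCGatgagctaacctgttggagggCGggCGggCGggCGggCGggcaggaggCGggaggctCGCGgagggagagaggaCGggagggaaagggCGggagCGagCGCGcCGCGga
Windows were found for 11 of the 21 Hox genes tested, and their 13 windows had a median of 13 CG pairs. The 17 windows of 14 of the 17 genes called higher with GSK343 had a median of 7, near that of all windows.

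Developmental regulators outside the Hox clusters were also mostly higher with GSK343, though none of the list was called. Of 30 tested members of a list of PRC2 target regulators, 25 were higher with GSK343 (median log2 fold change -0.42), 12 of them at an unadjusted p under 0.05, beside 9.39% of all genes, and 0 were called. Twist1, a mesoderm regulator, had the lowest p, with 1.02 to 5.55 CPM in H3.3K27M and 2.61 to 7.56 CPM with GSK343 (log2 fold change -1.02, SE 0.24, adjusted p = 0.056). Its groups overlapped. With the length term 26 of 30 were higher with GSK343, and 21 and 20 were in the 2 subsets. The list's median log2 fold change was 0.064 for GSK343 over WT-H3.3 and -0.36 for H3.3K27M over WT-H3.3. Over all libraries, most of the difference thus lay between H3.3K27M and untreated cells, and drug-treated cells were near the untreated ones. This differed by the side of the length trend. Relative to the WT-H3.3 mean, the list's median was -0.59 to -0.21 in the 5 H3.3K27M libraries with a trend above 0. It was -0.037 to 0.12 in the 3 with a trend below 0. Among the other libraries below 0 it was -0.0059 to 0.21 in WT-H3.3 and 0.023 to 0.395 with GSK343. Outside this list, Lmx1a, a regulator of dopaminergic neurons, was called in the test across all genes and is named with its values seen. It had 0.13 to 0.83 CPM in H3.3K27M and 0.76 to 1.86 CPM with GSK343, a difference of -1.69 on the log2 scale (SE 0.37).

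**Figure D3:**
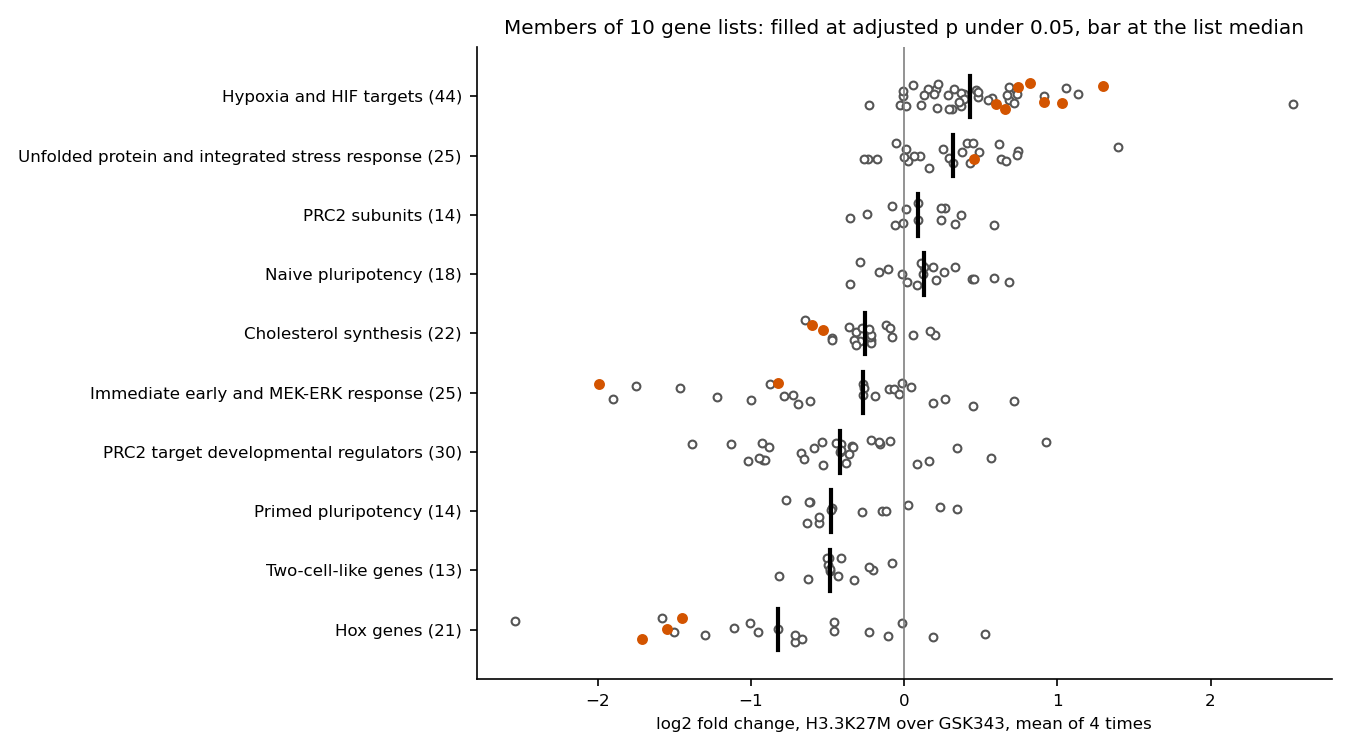
Log2 fold change of H3.3K27M over GSK343, mean of 4 times (horizontal axis), of each tested member (points) of 10 gene lists, with the number tested in brackets; filled points passed an adjusted p under 0.05 and black bars are medians. The HIF list has its median at 0.43 and the Hox list at -0.82.

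HIF targets, the genes for glycolysis, vessel growth and the response to low oxygen that the hypoxia-inducible factors switch on, were mostly higher in H3.3K27M. Of 44 tested, 40 were higher in H3.3K27M, with a median log2 fold change of 0.43, and 32 had an unadjusted p under 0.05 in that direction and 0 in the other, beside 15% and 9.39% of all genes. Called were 2 of 44, beside 0.0432% of all genes, and 7 passed the adjusted p alone (Gys1, Vegfa, Egln3, A2m, Hk1, Ddit4 and Pfkp). The study had named Vegfa, Ddit4, Bhlhe40, A2m and Ier3 among genes raised by H3.3K27M, and all of these are in the list. Their values here are therefore not independent of that report. Untreated cells were near the drug-treated ones, since the median log2 fold change was -0.014 for GSK343 over WT-H3.3 and 0.35 for H3.3K27M over WT-H3.3, with no member called in either. With the length term 39 of 44 stayed higher in H3.3K27M with a median of 0.30. Among the libraries with a trend below 0 the figure was 34 of 44 (median 0.17), and at 72 h it was 40 of 44 (median 0.53).

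Vegfa (ENSMUSG00000023951.17, chr17:46153942-46169326, minus strand) encodes the growth factor of blood vessels. Its H3.3K27M libraries held 20.9 and 33.55, 25.4 and 98.3, 34.0 and 68.5, and 48.7 and 55.0 CPM at 4, 8, 24 and 72 h. Its GSK343 libraries held 16.6 and 28.9, 17.1 and 17.6, 18.2 and 30.1, and 16.4 and 9.10 CPM. The groups overlapped only through 2 H3.3K27M libraries of replicate 1, at 4 and 8 h. The difference between the groups was 1.30 on the log2 scale (SE 0.25, adjusted p = 0.046). Untreated cells held 15.6 to 29.96 CPM. The log2 difference was 0.89 with the length term (adjusted p = 0.045, under 2-fold), 0.31 (SE 0.19) among the libraries with a trend below 0, and 1.99 (SE 0.30) at 72 h.

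Ddit4 (ENSMUSG00000020108.4, chr10:59412423-59414518, minus strand), an inhibitor of mTORC1 that responds to hypoxia and stress, was called over all times, but its 4 h values had the other sign. At 4 h it had 38.2 and 28.1 CPM in H3.3K27M against 39.6 and 54.3 CPM with GSK343. At 8 h it had 55.7 and 177.8 CPM against 29.7 and 47.9 CPM, and at 24 h 85.3 and 210.3 CPM against 43.9 and 72.6 CPM. At 72 h it had 85.5 and 102.1 CPM against 29.8 and 31.1 CPM. By time the log2 differences were -0.50, 1.66, 1.34 and 1.62, and the mean of all times was 1.03 (SE 0.22, adjusted p = 0.048). The change from the early to the late times was past the test neither for this nor for any other gene. With the length term the mean was 0.84 (adjusted p = 0.088), and it was 0.30 (SE 0.17) among the libraries with a trend below 0.

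**Figure D4:**
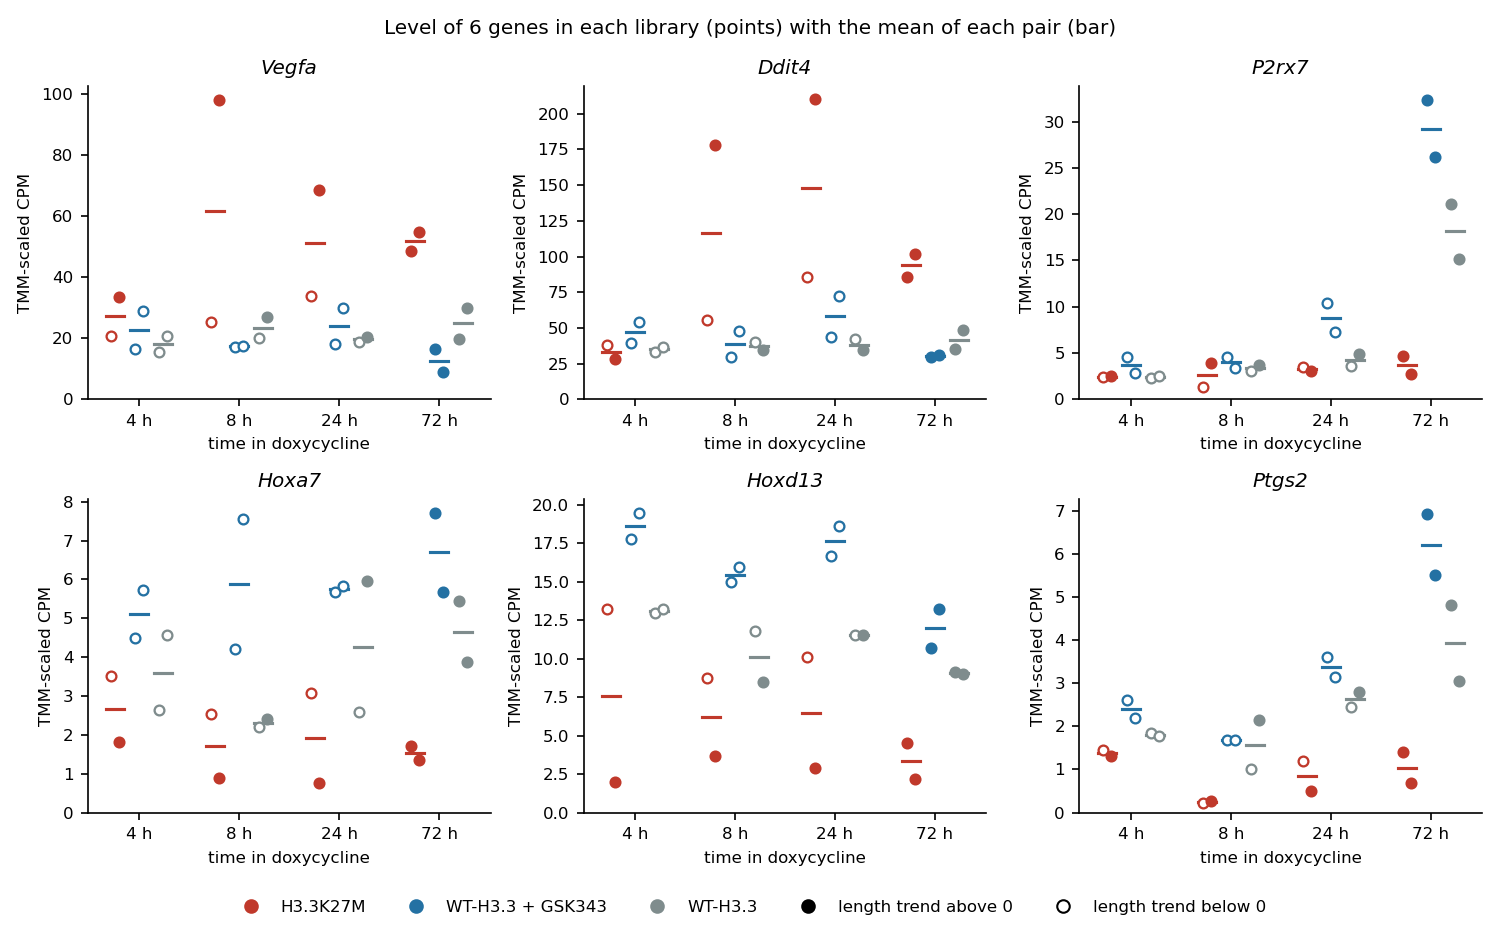
Level in TMM-scaled CPM (vertical axis) of 6 called genes by hours in doxycycline (horizontal axis), for H3.3K27M (red), GSK343 (blue) and WT-H3.3 (grey) libraries, with bars at the mean of each pair and open points for libraries with a length trend below 0. At 72 h Vegfa and Ddit4 are above the other groups in H3.3K27M and Hoxa7, Hoxd13 and Ptgs2 are below.

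The other members that passed the adjusted p had smaller differences. Egln3, the oxygen sensor that marks HIF for degradation, had 11.2 to 24.2 CPM in H3.3K27M and 5.50 to 14.3 CPM with GSK343 (log2 fold change 0.66, SE 0.13). Gys1, the muscle glycogen synthase, had 62.2 to 115.1 CPM against 47.9 to 65.4 CPM (0.60, SE 0.11), with 7 of 8 H3.3K27M libraries above all 8 GSK343 libraries. Hk1 and Pfkp, which catalyse early steps of glycolysis, had log2 fold changes of 0.82 and 0.74, and A2m had 0.91. Bhlhe40 and Ndufa4l2 were at 0.68 and 0.73 and did not pass (adjusted p = 0.10 and 0.075). Glycolytic enzymes of high level had values of 0.21 for Ldha, 0.31 for Aldoa and 0.20 for Gapdh, none of them past the adjusted p. The genes of the list that were not higher in H3.3K27M were Higd1a, P4ha2, Plod2 and Pfkfb4.

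The windows of the 250 bases before the start were searched for the core letters to which HIF binds, ACGTG and GCGTG, on both strands, where a CACGTG counts on either. Windows were found for 36 of the 44 HIF genes tested, and 41 of their 53 windows (77.4%) held a match, as did 12679 of 32851 windows of all genes (38.6%). Both motifs contain a CG pair, and the windows of the HIF genes had a median of 14 CG pairs against 6 in all windows, so these shares come from windows of different base content. Of the 7 members past the adjusted p, 6 had windows, and 5 of these 8 windows held a match. Shown here are 3 of the 5, from RefSeq on GRCm38.p6 and on the minus strand, with the matches in capitals, because they lie beside genes that passed: Ddit4 at chr10:59951771-59952020, Egln3 at chr12:54203875-54204124 and Pfkp at chr13:6648772-6649021.
Ddit4: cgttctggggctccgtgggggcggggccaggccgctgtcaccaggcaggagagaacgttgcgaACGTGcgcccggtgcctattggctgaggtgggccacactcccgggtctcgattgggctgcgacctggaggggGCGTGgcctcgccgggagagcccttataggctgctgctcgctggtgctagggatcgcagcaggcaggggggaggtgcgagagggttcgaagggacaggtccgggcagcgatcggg
Egln3: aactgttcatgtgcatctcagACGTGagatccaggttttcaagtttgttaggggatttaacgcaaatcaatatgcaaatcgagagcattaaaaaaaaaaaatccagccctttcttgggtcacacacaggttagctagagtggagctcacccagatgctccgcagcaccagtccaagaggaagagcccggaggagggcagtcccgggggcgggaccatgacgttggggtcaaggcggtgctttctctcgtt
Pfkp: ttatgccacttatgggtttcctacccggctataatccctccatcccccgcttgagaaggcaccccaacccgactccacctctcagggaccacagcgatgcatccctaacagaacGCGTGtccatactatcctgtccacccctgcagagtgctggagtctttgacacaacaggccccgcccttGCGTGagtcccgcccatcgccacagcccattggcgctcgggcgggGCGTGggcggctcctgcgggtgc
A match describes these letters only, and binding was not measured.

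Genes of the unfolded protein and integrated stress responses were also mostly higher in H3.3K27M. Of 25 tested, 21 were higher (median log2 fold change 0.32), 12 at an unadjusted p under 0.05, beside 15% of all genes, and Asns, the asparagine synthetase induced by ATF4, passed the adjusted p, beside 0.281% of all genes (log2 fold change 0.45, SE 0.10, adjusted p = 0.048). Of the list, Stc2 is also in the HIF list. With the length term 21 of 25 stayed higher, and at 72 h 22 of 25 were (median 0.51). Among the libraries with a trend below 0, 14 of 25 were higher (median 0.018).

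Ptgs2 (ENSMUSG00000032487.8, chr1:151947254-151955140, plus strand) had the lowest p of all genes. The inducible cyclooxygenase is an immediate early gene, one that growth signals switch on within minutes. Its H3.3K27M libraries held 1.46 and 1.32, 0.23 and 0.27, 1.19 and 0.51, and 1.40 and 0.68 CPM at 4, 8, 24 and 72 h. The GSK343 libraries held 2.62 and 2.19, 1.68 and 1.68, 3.60 and 3.15, and 6.93 and 5.50 CPM. The levels were low, with at most 12 counts in an H3.3K27M library and at most 53 in a GSK343 library, and the groups did not overlap. The log2 difference of -1.99 (SE 0.25, adjusted p = 0.0043) was -1.66 (SE 0.36) among the libraries with a trend below 0 and -2.56 (SE 0.44) at 72 h. Ptgs2 was also the 1 gene called between H3.3K27M and untreated WT-H3.3 over all times (log2 fold change -1.62, beside 0.0072% of all genes, with 1845 genes, or 13.3%, at an unadjusted p under 0.05). That count was 165 without H3.3K27M 8 h replicate 1, 92 without H3.3K27M 4 h replicate 1, 47 without H3.3K27M 24 h replicate 1, and 0 to 3 without any other library. With the replicate number as a block, which was taken to pair these 2 groups, 58 genes were called. GSK343 over WT-H3.3 was at 0.37 for Ptgs2 and did not pass. Between GSK343 and WT-H3.3 0 genes were called by edgeR and 0 by DESeq2, 1 passed the adjusted p alone (0.0072%), and 897 (6.46%) had an unadjusted p under 0.05.

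Of 25 tested immediate early genes and targets of MEK and ERK signalling, 20 were higher with GSK343 (median log2 fold change -0.27), 14 at an unadjusted p under 0.05, 2 past the adjusted p (Ptgs2 and Jun) and 1 called, beside 9.39%, 0.274% and 0.122% of all genes. Jun, a subunit of the AP-1 factor, had 5.43 to 10.2 CPM in H3.3K27M, 8.41 to 19.7 CPM with GSK343 and 4.89 to 12.8 CPM in WT-H3.3 (log2 fold change -0.82, SE 0.12, adjusted p = 0.0095), and the median of the untreated cells, 6.95 CPM, was near the 7.54 CPM of H3.3K27M. Its AP-1 partner Fos had 2.14 to 11.3 CPM against 5.36 to 31.5 CPM (log2 fold change -1.46, SE 0.33) and missed the adjusted p at 0.053. With the length term 20 of 25 stayed higher with GSK343, and 17 and 22 were in the 2 subsets.

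P2rx7 (ENSMUSG00000029468.17, chr5:123093920-123141441, plus strand), an ATP-gated cation channel, was called and is named with its values seen. It had 2.43 and 2.47, 1.39 and 3.97, 3.45 and 3.04, and 4.68 and 2.71 CPM in H3.3K27M at the 4 times, against 4.61 and 2.86, 4.62 and 3.36, 10.4 and 7.22, and 32.3 and 26.2 CPM with GSK343. Compared hour by hour, the groups overlapped at 8 h and were apart at 4, 24 and 72 h. Untreated cells also had more at 72 h, with 21.1 and 15.2 CPM against 2.35 to 4.94 CPM before. Over all times the log2 difference was -1.42 (SE 0.21, adjusted p = 0.0095), and it was -2.98 at 72 h (SE 0.30).

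Enzymes of cholesterol synthesis, which are induced together when sterols are low, were mostly higher with GSK343. Of 22 tested, 19 were higher with GSK343 (median log2 fold change -0.25), 15 at an unadjusted p under 0.05, beside 9.39% of all genes, and Cyp51 and Pmvk passed the adjusted p without reaching 2-fold, beside 0.274%. Cyp51, the lanosterol demethylase, had 139.3 to 201.7 CPM in H3.3K27M, 187.0 to 336.8 CPM with GSK343 and 127.5 to 237.7 CPM in WT-H3.3 (log2 fold change -0.53, SE 0.098, adjusted p = 0.046), with 7 of 8 H3.3K27M libraries below all 8 GSK343 libraries. Against the untreated cells the list's median was 0.31 for GSK343 over WT-H3.3 and 0.017 for H3.3K27M over WT-H3.3, comparisons in which no member was called. With the length term 20 of 22 stayed higher with GSK343, and 20 and 21 were in the 2 subsets.

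**Figure D5:**
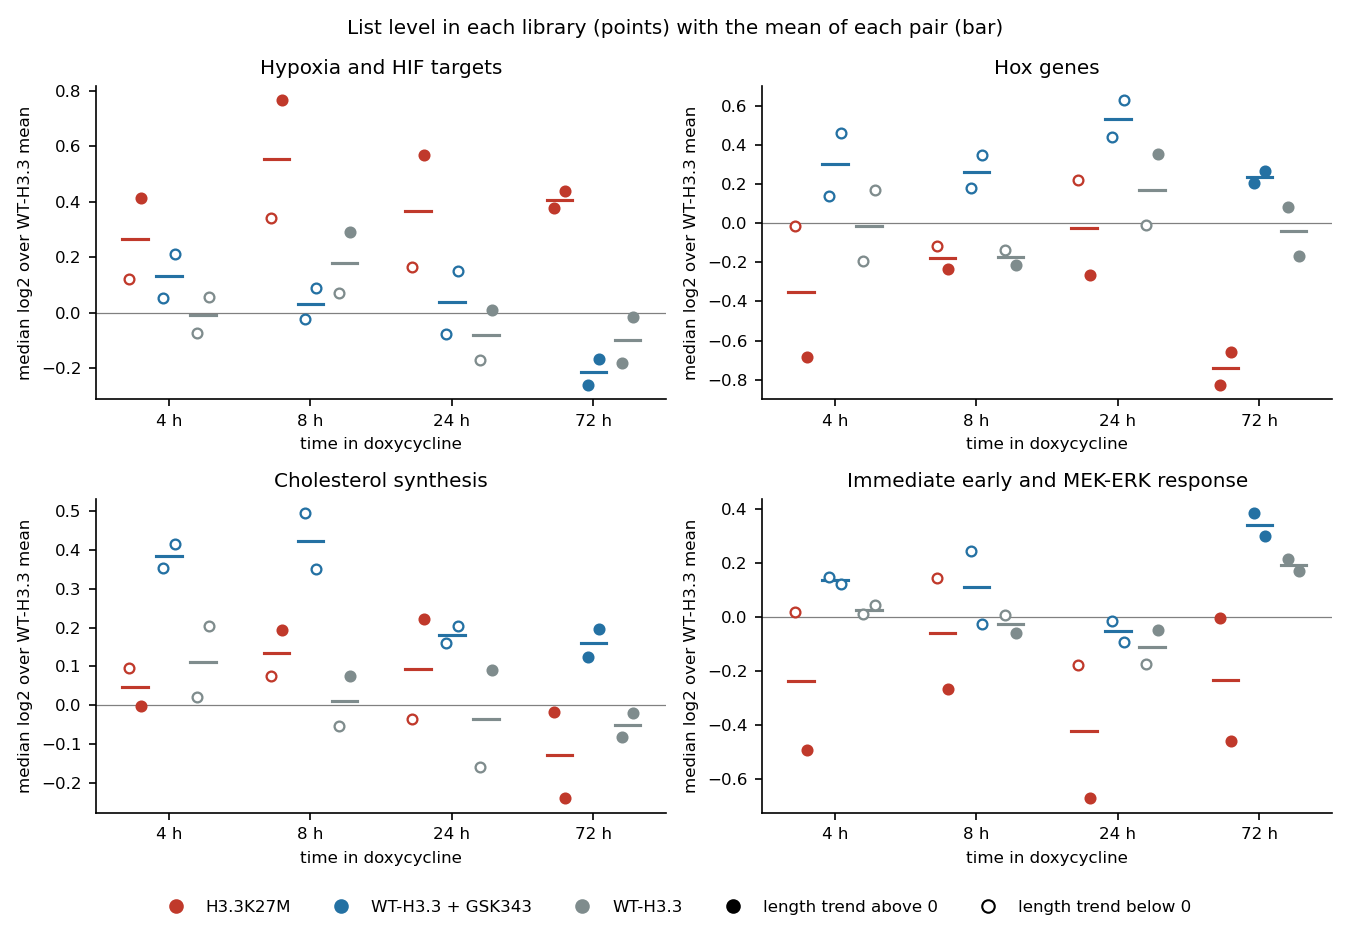
For 4 gene lists, the median over members of the log2 level relative to the WT-H3.3 mean (vertical axis) in each library by hours in doxycycline (horizontal axis), coloured by group, with bars at the mean of each pair and open points for libraries with a length trend below 0. At 72 h the HIF list is above 0 in both H3.3K27M libraries (0.38 and 0.44) and below 0 in both GSK343 libraries, and the Hox list is at -0.83 and -0.66 in H3.3K27M.

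The other called genes named here have no list in common and, apart from Gpnmb of the lysosome list, are named with their values seen. Higher in H3.3K27M were Atp6v0a4, a proton pump subunit (log2 fold change 1.14), Vwf, the von Willebrand factor (1.30), Rab39 (1.27) and Cap2 (1.13), each with 5 to 7 of 8 H3.3K27M libraries above all GSK343 libraries. Higher with GSK343 were Gpnmb, a lysosomal glycoprotein (-1.18), Efna5, an ephrin ligand (-1.15), Tchh (-1.29), Cdk5r2 (-1.27), Anxa3 (-1.39), Robo4 (-1.34), St3gal6 (-1.04), Lipg (-1.28), Slc25a48 (-1.26) and Slfn8 (-1.14). Of the 17 genes higher with GSK343, 14 had a mean below 10 CPM in both groups. Mitochondrially encoded transcripts, a sign of RNA quality and cell state, had a median share of 1.94% in H3.3K27M and 2.57% with GSK343, all 9 tested were higher with GSK343 (median log2 fold change -0.42), 0 were called by edgeR and 5 had an unadjusted p under 0.05. At 72 h, 6 of 9 were higher in H3.3K27M. Their part in the other results was not tested.

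In the other lists, the member named is the one with the lowest p, and it need not follow its list. Higher with GSK343 were 12 of 18 endoderm, 9 of 12 trophoblast and 16 of 19 Nodal and BMP genes. So were 10 of 12 interferon, 7 of 10 xenobiotic and 10 of 16 cell cycle inhibitor and G1 cyclin genes. Each of these lists is named below by a gene above 0. The fatty acid and p53 lists, named by genes below 0, had 10 of 15 and 11 of 20 higher in H3.3K27M. Cdx2 of the Wnt list is also in the trophoblast list. Ect2, a regulator of cytokinesis, and the imprinted Grb10, an adaptor of growth factor receptors, passed the adjusted p and were higher in H3.3K27M (log2 fold changes 0.44 and 0.87, adjusted p = 0.048 for both), while no other gene of this paragraph did. Fgf4 of the naive list, the ligand that drives ERK signalling in ESCs, had 244.2 to 455.3 CPM in H3.3K27M and 187.5 to 240.4 CPM with GSK343, so the groups did not overlap (0.58, SE 0.13, adjusted p = 0.050). Values above 0 were found for the transporter Abcc1 (0.63), the cell cycle inhibitor Cdkn1b (0.43), Lamb1 of the endoderm list (0.73), the DNA glycosylase Tdg (0.46), Tcfap2c of the trophoblast list (0.73), Mcm6 of the replicative helicase (0.25), Skil of the Nodal and BMP list (0.63), the demethylase Phf8 (0.59), Stat2 of the interferon list (0.35), the histone chaperone Supt16h (0.59), Fn1 of the fibroblast list (0.74) and Txnrd1 (0.17). With the length term each of these values was smaller. Fn1 came to 0.26, Skil to 0.29, Supt16h to 0.28, Phf8 to 0.30 and Abcc1 to 0.34. Tcfap2c came to 0.49 with the term and to 0.023 among the libraries with a trend below 0. Fgf4 came to 0.35 with the term. Hist1h3c was also above 0 (0.98, and 1.25 with the term), at no more than 2.77 CPM. It shares sequence with its near-identical copies, so its count is uncertain. Values below 0 were found for the desaturase Fads2 (-0.37), Piwil2 of the germline list (-0.52), the p53 target Perp (-0.62), Zic2 of the primed list (-0.47), mt-Nd2 (-0.47), Cdx2 of the Wnt list (-1.38) and Zfp352 of the two-cell-like list (-0.82). Of the 7 Y-linked genes tested, Ddx3y (0.45), Uty (0.27), Kdm5d (0.28), Zfy1 (0.24), Usp9y (0.15) and Eif2s3y (0.065) were above 0 and Ube1y1 (-0.064) was below.

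Early and late hours were then taken apart. Over 4 and 8 h 0 genes were called by edgeR (2545 at an unadjusted p under 0.05, and 2 called by DESeq2), and over 24 and 72 h 2 were called (0.0144%, with 8.73% at an unadjusted p under 0.05), Ptgs2 (log2 fold change -2.26) and P2rx7 (-2.20), both higher with GSK343. The early count was 236 without H3.3K27M 8 h replicate 1 and 0 without any other library. The late count was 0 without H3.3K27M 72 h replicate 2, 1 without H3.3K27M 24 h replicate 2, GSK343 72 h replicate 1, GSK343 24 h replicate 1 or GSK343 24 h replicate 2, and 2 or 3 without any other. A test of the change between these hours called 0 genes (361 at an unadjusted p under 0.05 by edgeR, 2.6% of those tested, and 0 by DESeq2). The median of the Hox list was -0.89, -0.50, -0.98 and -1.06 at the 4 times in order. For HIF targets it was 0.084, 0.65, 0.31 and 0.53, with 28 of 44 higher in H3.3K27M at 4 h and 40 of 44 at each later time. For cholesterol genes it was -0.38, -0.37, -0.093 and -0.26. Of the 23 called genes 22 had 1 direction at all 4 times, Ddit4 being the exception, as did 34.6% of all genes. The 23 were chosen by their mean over these same times, so the 2 shares cannot be compared.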

How the data were processed

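Total RNA was made into QuantSeq 3′ or KAPA mRNA libraries and sequenced single-end. Which library was made with which kit, and which program and annotation counted the reads, is not given in the sources used here. The authors aligned reads to mm9 with STAR 2.7.1 and deposited raw counts per gene, without normalization or pooling. The labels gave every group and replicate. Genes on chromosome 8 (2532 of 55471) were left out of the tests, since the study's methods name a possible duplication there in the lines. Sums over gene lists kept them. The chromosome 8 genes were placed by the NCBIM37 annotation (1435) or otherwise by their position in the table.

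Genes passing edgeR's filterByExpr were scaled by TMM and fitted with edgeR 4.0.16 (glmQLFit and glmQLFTest, R 4.3.3) over 24 libraries, in which every combination of group and hour had its own term, leaving 12 residual degrees of freedom. Contrasts averaged the times. Deviations from the group means of same-numbered H3.3K27M and WT-H3.3 libraries correlated at 0.39, 0.56, 0.41 and 0.45 over the times. All 4 were over the limit of 0.1, so these numbers were taken as pairs. At 8 and 24 h, replicate 1 had a length trend below 0 and replicate 2 above 0 in both groups. There, pairing and length trend cannot be told apart. For GSK343 and WT-H3.3 the values were 0.27, -0.11, -0.13 and 0.62. For H3.3K27M and GSK343 they were -0.11, -0.077, -0.064 and 0.076. GSK343 was therefore not taken as paired with either group. Adjusted p-values are Benjamini-Hochberg values over 13883 genes. A call needed an adjusted p under 0.05 and a fold above 2 or below 0.5. The SE is the log2 fold change over the root of F. The script was tested on simulated data. DESeq2 1.42.0 was an alternative, and a fit with the gene length trend removed, the side of the length trend as a term and fits within each side were added after seeing the data. Depth sets the precision of low genes, and GSK343 8 h replicate 2 is the least precise library.

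Of the list entries, 844 of 870 matched 1 gene. The genes named were 14 fixed ones, called genes whose groups did not overlap, up to 3 called members per list and direction (otherwise the member of lowest p) and the Y-linked list. Of the called genes, 1 is not reported here. Other named genes were chosen after their values were seen. The members, lists and tests were chosen with earlier results of these data known.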

Additional observations from a re-analysis of the deposited data

Results flagged for a closer look

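Of 112 sets of 8 libraries examined, 4 held a value that lay far from the other 7 of its group, and chance gives about 1 in 20 such sets. All 4 were GSK343 8 h replicate 2. Its total was 1247934 counts, where the other GSK343 libraries had 5295859 to 8724336. It had 18.48 CPM of Bmi1 against 26.92 to 37.11 CPM, 20.16 CPM of Bhlhe40 against 31.43 to 44.15 CPM, and 0.0 CPM of Grin1 against 1.515 to 3.223 CPM. Without this library 3 genes were called over all times. The part of its depth in these values was not tested.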

How the results depend on the processing

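Counts of called genes are given for all times, for 4 and 8 h, for 24 and 72 h and for H3.3K27M over WT-H3.3, where 23, 0, 2 and 1 were called. They were 96, 2, 23 and 50 by DESeq2. With no filter on low counts (32405 genes) they were 293, 266, 105 and 159, with 8 for the change with time and 27 for GSK343 over WT-H3.3. With at least 10 counts in every library (8877 genes, 2447 of them at an unadjusted p under 0.05) they were 2, 0, 0 and 0. With the 2 compared groups alone they were 1, 0, 3 and 0, with all 32 ESC libraries 13, 0, 2 and 2, and with additive time and group 103, 0, 16 and 51. RLE size factors gave 2 for H3.3K27M over WT-H3.3 and shifted the median of all genes by -0.0041. Without a fold limit 77 genes passed over all times and 1 for GSK343 over WT-H3.3, and at 4-fold 0 and, for H3.3K27M over WT-H3.3, 0. With the length trend removed 57 were called, among them all 23. With its side as a term the counts were 18, 0, 14 and 69. Keeping chromosome 8 left each count as it was. With the replicate number as a block they were 115, 1, 15 and 58. Deviations of same-numbered H3.3K27M and GSK343 libraries correlated at -0.11, -0.077, -0.064 and 0.076 over the times, so these 2 groups were not taken as paired. For H3.3K27M over WT-H3.3, where the numbers were taken as pairs, the block moved the count from 1 to 58. Leaving out 1 library at a time gave 0 to 341, 0 to 236, 0 to 3 and 0 to 165, and 0 for the change with time and for GSK343 over WT-H3.3. The cause of these shifts was not tested.

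Over 35 settings, 84.1 to 93.3% of HIF targets were higher in H3.3K27M, and with GSK343 81.8 to 100% of Hox (100% with at least 10 counts in every library, where 2 were left), 86.4 to 90.9% of cholesterol and 68.0 to 84.0% of immediate early genes were higher. Ptgs2 kept its call in 33 of 34 settings, Hoxa7 in 16 of 34, Vegfa in 14 of 35, Ddit4 in 11 of 35, Hoxd13 in 14 of 35 and Hoxd9 in 13 of 34, all with their direction. Sign changes were seen in uncalled genes near 0. Nanog reached 0.0013 with no filter, 0.054 with the length trend removed, 0.13 with the length term and -0.088 to 0.048 without 1 library. H3f3a was at 0.17 with the length term and at -0.11 to 0.043 without 1 library, and Eed and Ezh2 were at 0.055 and 0.047 with the term. Of the Y-linked genes, Eif2s3y ran from -0.041 to 0.15, Usp9y from -0.82 to 1.17 and Ube1y1 from -0.14 to 0.035 without 1 library.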
